A study of Homo sapiens with 9 samples.

Results

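The collagen genes are the rows of the deposited gene table whose symbol is COL followed by a number, A and a number. The rule uses no measured value and finds 42 of the 32378 genes in the table. The table covers 9 libraries of polyadenylated RNA from SKOV3 cells, a human ovarian cancer cell line with extra copies of ERBB2. Cells given carboplatin and COM33 together (Carbo+COM33), cells given carboplatin alone (Carbo) and control cells had 3 libraries each. Carboplatin is a platinum drug that crosslinks DNA, and COM33 is named in the labels without a description. All 3 groups grew in RPMI medium with fetal bovine serum. The labels give no dose, no treatment time and no group with COM33 alone, so the effect of COM33 without carboplatin was not measured here. They number the libraries of a group from 1 to 3 without saying that these came from separate cultures, so the p-values measure the spread between libraries, which may be technical.

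Collagens are extracellular proteins built from 3 chains wound into a triple helix, with glycine recurring along the wound part. Fibrillar collagens such as types I and V form the cables of connective tissue, type IV forms the sheet of the basement membrane, and type VI forms beaded filaments around cells. Fibril-associated collagens bind to the surface of fibrils, type VII anchors epithelium to the stroma, and transmembrane collagens span the plasma membrane. In ovarian tumours most of the fibrillar collagen is laid down by stromal fibroblasts, which a cultured carcinoma line lacks.

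The libraries held between 13851760 and 15533668 counted fragments. Collagen genes took 0.277%, 0.342% and 0.389% of them in the Carbo+COM33 libraries, 0.338%, 0.416% and 0.36% in the Carbo libraries, and 0.403%, 0.494% and 0.447% in the control libraries. All 3 Carbo+COM33 libraries were below all 3 control libraries in this share, while the Carbo libraries overlapped both. In each group 1 library stood apart from the other two. By the chi-square per gene between the counts of a pair, Carbo+COM33 replicate 3 differed from its companions by 14.2 and 12.2 against 3.27 between them, Carbo replicate 1 by 15.4 and 27.1 against 5.88, and control replicate 1 by 10.7 and 14.3 against 3.39. Values without these libraries are given where they change a result.

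The line's own markers were present. ERBB2 averaged 1630 ± 159 CPM in Carbo+COM33, 2415 ± 155 CPM in Carbo and 2335 ± 65.7 CPM in control libraries (counts relative to library size after TMM scaling; SD, n = 3), and KRT8 was at least 299 CPM and PAX8 at least 281 CPM in every library. WT1 was low, between 1.39 and 2.36 CPM. The 6 fibroblast markers DCN, LUM, PDGFRA, PDGFRB, THY1 and FAP summed to 0.37 to 1.3 CPM in Carbo+COM33, 0.61 to 1.7 CPM in Carbo and 0.83 to 2.4 CPM in control libraries, and 5 of them had fewer than 50 counts over all 9 libraries. PDGFRA was at 0 in all 3 Carbo+COM33 libraries. Endothelial markers summed to at most 2.15 CPM and blood cell markers to at most 1.45 CPM in any library.

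Of the 42 collagen genes, 23 had enough counts to be tested and 19 did not. The untested genes had between 1 and 48 counts summed over the 9 libraries, and none had more than 12 in a single library. They include COL3A1, the type III chain that abounds in fibroblasts, with 4 counts in all, COL2A1 of cartilage with 6, COL11A1 with 2, and COL6A5, COL9A3 and COL14A1 with 1 each. COL25A1, a transmembrane collagen of neurons, was the nearest to the filter, with 5, 4 and 3 counts in Carbo+COM33, 2, 1 and 3 in Carbo, and 10, 12 and 8 in control libraries. At this depth these genes are at or near the limit of detection, and no comparison of them was made. COL4A6 and COL22A1 were not analysed here.

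On the length-corrected scale of the deposited FPKM values, 8 collagen genes had a mean of at least 10 over the 9 libraries, 7 lay between 1 and 10, and 8 tested genes lay below 1. The first 8 held between 93.3% and 94.6% of all collagen FPKM in a library. The order by mean FPKM was COL5A1 at 81.6, COL18A1 at 50.9, COL7A1 at 50.1, COL12A1 at 40.6, COL4A1 at 31.8, COL4A2 at 30.0, COL6A2 at 26.1 and COL4A3 at 10.4. FPKM here divides by all annotated exons of a gene, which may exceed the transcript made, so this order depends on the annotation. By counts summed over the 9 libraries COL4A2, with 76240, was above COL18A1 with 57295 and COL7A1 with 73180. COL5A1 lay above COL18A1 in every library of every group. COL18A1 and COL7A1 are neighbours in this order whose values overlapped in every group, as did COL12A1 with COL4A1 and COL4A1 with COL4A2. COL4A3 is separated from COL6A2 above it and from COL16A1 below it in every library. The collagens with the highest FPKM thus came from the fibrillar, multiplexin, anchoring, fibril-associated, basement membrane and beaded filament classes.

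**Figure D1:**
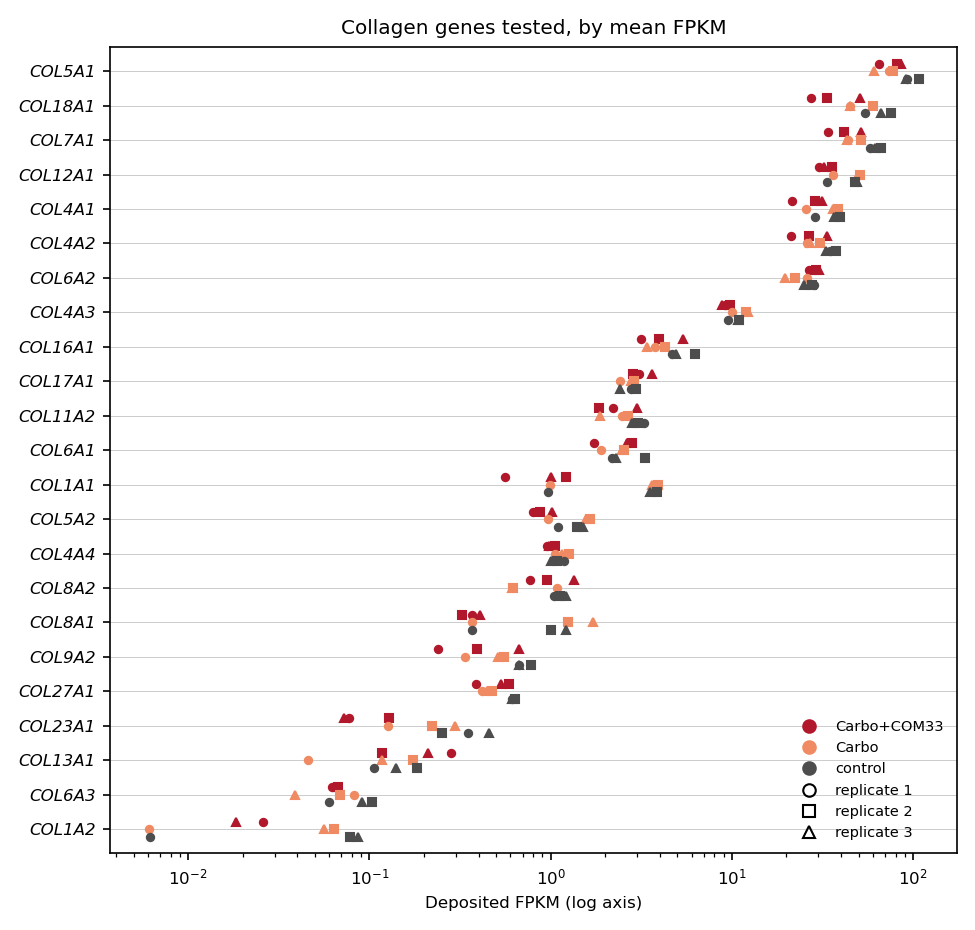
Deposited FPKM (log axis) of the 23 tested collagen genes in each of the 9 libraries, ordered by mean; colour gives the group and the marker the replicate number. COL5A1 lies highest and COL1A2 lowest, and the Carbo+COM33 replicate 2 value of COL1A2, which is 0, cannot be drawn on this axis.

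Chains that assemble into one molecule were not at equal levels. COL4A2 and COL4A1, the partners of the commonest basement membrane trimer, came closest by FPKM. The FPKM ratio of COL4A2 to COL4A1 was between 0.745 and 1.21, with a median of 0.953. It rests on annotated exon lengths of 19293 bases for COL4A2 and 14738 bases for COL4A1. In counts over the 9 libraries COL4A2 had 76240 and COL4A1 61876. The other ratios depend on annotated length in the same way. COL4A3 was 7.95 to 10.7 times as high as COL4A4, its neighbour and partner in kidney basement membrane, and COL4A5, the third chain of that trimer, had 20 counts in all. COL6A2 was 7.9 to 15.4 times as high as COL6A1, and COL6A1 in turn 23 to 63.5 times as high as COL6A3. COL5A1 was 38.8 to 93.1 times as high as COL5A2, with which it forms the fibril-nucleating type V molecule. COL1A1 was 21.6 to 165 times as high as COL1A2, its partner in type I collagen, in the 8 libraries where COL1A2 was counted. COL1A2 had only 4, 0 and 3 counts in Carbo+COM33, 1, 11 and 9 in Carbo, and 1, 13 and 14 in control libraries. The width of this range therefore largely reflects few counts.

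COL4A1 and COL4A2 lie head to head on chromosome 13 (COL4A1 on the minus strand at chr13:110148963-110307233, COL4A2 on the plus strand at chr13:110305812-110513209, GRCh38). Their RefSeq promoter windows, 250 bases before to 50 after the start (GRCh38.p14), share the 226 bases chr13:110307108-110307333. COL4A3 and COL4A4 also share 82 bases of their windows, chr2:227164374-227164455, with an FPKM ratio of 7.95 to 10.7. The COL4A1 and COL4A2 windows are shown because 1 stretch of DNA lies in the windows of the pair whose FPKM values were nearest to each other. Each is read 5′ to 3′ on its own gene's strand, and capitals mark GGGCGG and CCAAT on either strand.
COL4A1: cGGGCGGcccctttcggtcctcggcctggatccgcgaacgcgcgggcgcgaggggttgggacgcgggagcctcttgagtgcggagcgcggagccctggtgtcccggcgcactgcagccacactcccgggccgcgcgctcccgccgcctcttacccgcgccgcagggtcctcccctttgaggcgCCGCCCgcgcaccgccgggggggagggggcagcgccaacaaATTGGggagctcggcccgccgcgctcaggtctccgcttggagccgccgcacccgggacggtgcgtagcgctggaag
COL4A2: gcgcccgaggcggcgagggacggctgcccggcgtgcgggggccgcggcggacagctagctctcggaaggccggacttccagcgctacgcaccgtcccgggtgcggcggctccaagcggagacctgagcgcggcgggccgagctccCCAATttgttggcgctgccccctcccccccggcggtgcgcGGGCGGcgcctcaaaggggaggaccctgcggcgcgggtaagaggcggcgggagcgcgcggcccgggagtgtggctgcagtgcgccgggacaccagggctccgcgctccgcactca

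The COL4A1 window holds 2 GGGCGG and 1 CCAAT matches, and the COL4A2 window 1 of each. COL4A1 had 322, 430 and 471 CPM in Carbo+COM33, 375, 560 and 531 CPM in Carbo, and 424, 575 and 534 CPM in control libraries. Replicate 1 was the lowest library in each group, and all groups overlapped. COL4A2 had 417, 522 and 652 CPM in Carbo+COM33, 495, 587 and 517 CPM in Carbo, and 671, 717 and 632 CPM in control libraries. Every Carbo value of COL4A2 was below every control value, while for COL4A1 the Carbo and control values overlapped.

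The 31 collagen genes with a RefSeq promoter have 42 promoter windows between them, which are set here against all 35116 windows in the table. GGGCGG, the core of the GC box, is in 23 of the 42 (54.8%), against 45.0% of all windows. TATAAA, the sequence of a TATA box, is in 8 (19.0%) against 11.5%, and CCAAT in 13 (31.0%) against 34.6%. TGANTCA, the AP-1 core, is in 1 window, of COL10A1, against 7.71%, and CATTCC, the TEAD core, is in 3 (7.14%) against 14%. Both strands were searched at every position, so a TATAAA match need not lie where a TATA box works. The counts describe only these windows.

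The first comparison set cells given carboplatin with COM33 against control cells. COL18A1, COL7A1 and COL23A1 fell, and no collagen rose. COL18A1 is a basement membrane collagen whose tail is cleaved to the vessel-growth inhibitor endostatin, COL7A1 is the anchoring fibril chain, and COL23A1 is a transmembrane collagen. These are 3 of 23 tested genes (13.0%) called lower by edgeR's quasi-likelihood test at an adjusted p under 0.05. Of all 16450 tested genes 6.29% were called in either direction and 3.09% were called lower. The transcripts of these 3 collagens have a GC content of 66.9%, 64.5% and 63.3%. Above 60% GC, 3 of 10 collagens and 8.44% of all genes were called lower. At or below 60%, 0 of 13 collagens and 2.2% of all genes were.

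COL18A1 (ENSG00000182871, chr21:45405137-45513720, plus strand) had 237, 288 and 437 CPM in Carbo+COM33, 381, 503 and 383 CPM in Carbo, and 464, 640 and 565 CPM in control libraries. All Carbo+COM33 values were below all control values, with Carbo+COM33 replicate 3 the nearest to them, while the Carbo values overlapped both groups. The log2 fold change was -0.79 ± 0.19 (SE), or 0.577 of the control level, with an adjusted p of 0.0323 by edgeR. COL18A1 shares 1401 bases of exon with SLC19A1, a folate carrier gene on the opposite strand, and since no strand setting is given for the counting, reads in that stretch cannot be told apart. SLC19A1 averaged 31.4 CPM in Carbo+COM33, 30.7 CPM in Carbo and 31.6 CPM in control libraries.

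COL7A1 (ENSG00000114270, chr3:48564073-48595267, minus strand) had 380, 468 and 576 CPM in Carbo+COM33, 483, 561 and 481 CPM in Carbo, and 640, 728 and 679 CPM in control libraries. The control libraries were above all the others. Its log2 fold change was -0.52 ± 0.13 (SE), or 0.695 of the control level, with an adjusted p of 0.0323 by edgeR. COL23A1 (ENSG00000050767, chr5:178237618-178590555, minus strand) is a low gene, with 0.295, 0.489 and 0.277 CPM in Carbo+COM33, 0.471, 0.828 and 1.12 CPM in Carbo, and 1.32, 0.932 and 1.71 CPM in control libraries. Again no Carbo+COM33 library reached the lowest control library, and the Carbo libraries lay across both. COL23A1 had 4, 7 and 4 counts in Carbo+COM33 and 19, 14 and 25 in control libraries. It passed the count filter through the Carbo and control libraries, where it was higher. The direction of its call, counted in the 3 of 23, therefore carries little weight. The log2 fold change of COL23A1 was -1.87 ± 0.45 (SE), or 0.274 of the control level, with an adjusted p of 0.0314 by edgeR.

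The promoter windows of the 3 genes that fell are shown to compare their composition, read 5′ to 3′ on the gene's strand from RefSeq (GRCh38.p14). Capitals mark GGGCGG or TATAAA on either strand, adjoining or overlapping matches running together. They are the windows of the first COL18A1 start (chr21:45404915-45405214, plus), a later COL18A1 start (chr21:45455272-45455571, plus), COL7A1 (chr3:48595280-48595579, minus) and COL23A1 (chr5:178590344-178590643, minus).
COL18A1 first start: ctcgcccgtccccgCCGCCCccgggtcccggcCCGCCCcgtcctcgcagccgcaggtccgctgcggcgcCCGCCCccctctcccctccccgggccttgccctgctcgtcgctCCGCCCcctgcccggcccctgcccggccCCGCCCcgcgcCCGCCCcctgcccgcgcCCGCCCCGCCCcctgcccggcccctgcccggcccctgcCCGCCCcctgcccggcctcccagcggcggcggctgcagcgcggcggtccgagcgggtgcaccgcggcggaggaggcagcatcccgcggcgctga
COL18A1 later start: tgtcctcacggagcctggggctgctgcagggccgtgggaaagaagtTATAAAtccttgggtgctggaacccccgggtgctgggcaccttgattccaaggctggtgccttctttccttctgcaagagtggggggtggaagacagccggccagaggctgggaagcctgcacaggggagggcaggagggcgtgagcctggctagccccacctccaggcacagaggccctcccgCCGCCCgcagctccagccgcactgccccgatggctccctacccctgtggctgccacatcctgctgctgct
COL7A1: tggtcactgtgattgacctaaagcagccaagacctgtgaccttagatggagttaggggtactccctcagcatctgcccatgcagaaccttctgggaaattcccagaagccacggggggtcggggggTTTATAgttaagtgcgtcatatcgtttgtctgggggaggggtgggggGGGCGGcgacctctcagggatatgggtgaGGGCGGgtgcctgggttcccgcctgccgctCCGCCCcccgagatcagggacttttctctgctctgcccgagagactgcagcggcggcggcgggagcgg
COL23A1: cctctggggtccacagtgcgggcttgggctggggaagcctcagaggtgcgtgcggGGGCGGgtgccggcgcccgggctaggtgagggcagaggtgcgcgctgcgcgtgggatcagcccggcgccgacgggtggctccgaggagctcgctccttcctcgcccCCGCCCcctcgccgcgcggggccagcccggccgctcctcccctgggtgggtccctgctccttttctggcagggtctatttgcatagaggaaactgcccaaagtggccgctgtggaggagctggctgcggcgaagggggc

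The first COL18A1 window is 86.7% G and C and holds 9 GGGCGG matches, while the later window is 66.3% G and C and holds 1 of them with 1 TATAAA. COL7A1 holds 3 GGGCGG and 1 TATAAA in a window of 62.3% G and C, and COL23A1 holds 2 GGGCGG and no TATAAA at 73.3%. The counts are per gene, so the files do not show which COL18A1 start was used.

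The 3 calls depend on few libraries. None of the 23 genes was called without Carbo+COM33 replicate 1, without Carbo+COM33 replicate 2, without control replicate 2 or without control replicate 3, where 0.93%, 1.08%, 0.693% and 1.23% of all genes were called. The adjusted p by edgeR was then 0.101 to 0.159 for COL18A1, 0.0999 to 0.154 for COL7A1 and 0.0757 to 0.141 for COL23A1. The count was 7 without Carbo replicate 1, 6 without Carbo+COM33 replicate 3 and 5 without control replicate 1, where 11.0%, 13.4% and 6.63% of all genes were called, and it was 9 without control replicate 1 and Carbo replicate 1 together, a setting chosen after seeing the data in which 14.3% of all genes were called. All of these calls were lower. Those of COL23A1 and COL1A2 among them carry little weight, since both genes passed the count filter through Carbo and control libraries. After trends of the counts with GC content and length were removed, with 5.84% of all genes called, COL18A1 was still called at -0.53 (adjusted p = 0.0459, edgeR), COL7A1 at -0.28 and COL23A1 at -1.66 were not (adjusted p = 0.0824 and 0.063), and COL6A2 was called higher at 0.36 (adjusted p = 0.025). COL23A1 also missed the threshold without Carbo replicate 2 and without Carbo+COM33 replicate 3 (adjusted p = 0.051 and 0.0507), and DESeq2 gave it no adjusted p. A lower level in every cell and fewer cells with the transcript cannot be told apart in these bulk libraries.

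Of the other 20 tested collagens, none passed the test in the comparison of Carbo+COM33 with control. Their log2 fold changes lay mostly below 0, so that with the 3 called genes 20 of 23 were negative, with a median of -0.344 beside -0.0139 over all tested genes. With GC and length trends removed 18 of 23 were negative, with a median of -0.233 beside 0.0155 over all tested genes. At an unadjusted p under 0.05 there were 9 collagens (39.1%) beside 24.0% of all genes. In 6 collagens (26.1%) every Carbo+COM33 value lay below every control value, beside 14.4% of all genes: COL18A1, COL7A1, COL23A1, COL5A1, COL5A2 and COL27A1. In no collagen did every Carbo+COM33 value lie above, beside 14.3% of all genes. COL23A1 and COL1A2 passed the count filter through Carbo and control libraries, where they were higher. Their direction therefore carries little weight in the counts of this paragraph.

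**Figure D2:**
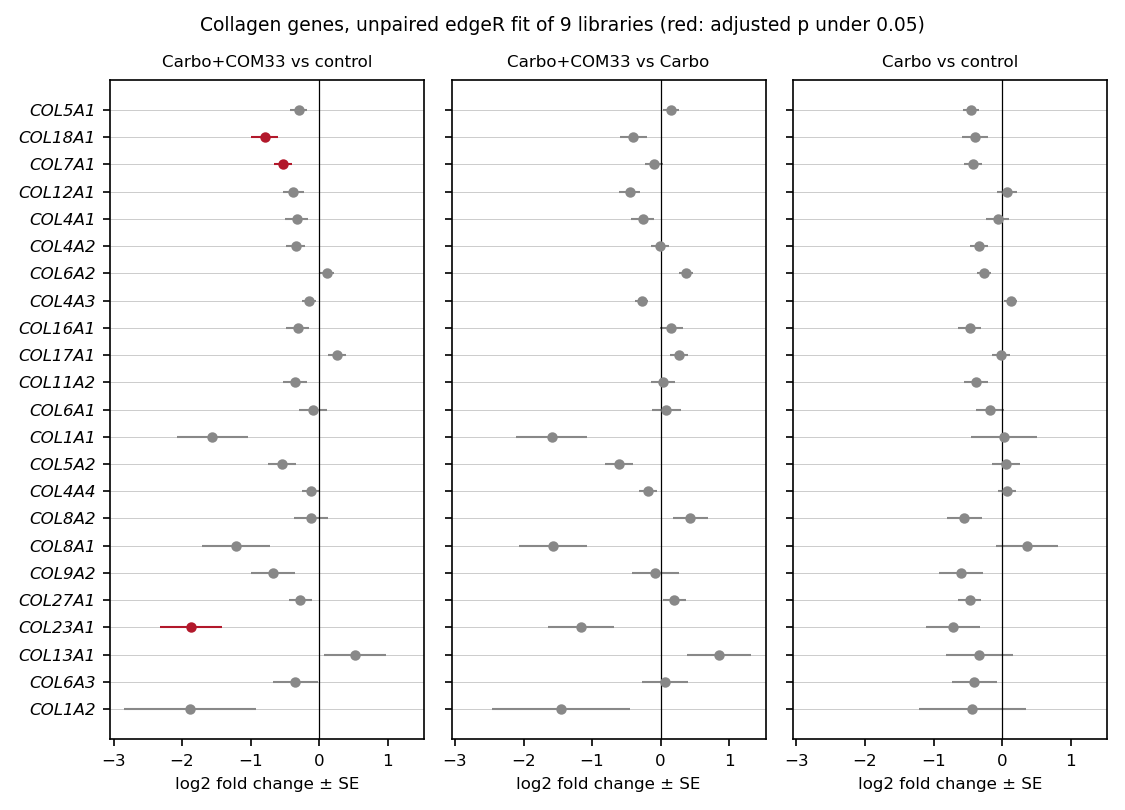
Log2 fold change ± SE of the 23 tested collagen genes in the 3 comparisons, from the unpaired edgeR fit of 9 libraries; red marks an adjusted p under 0.05. COL18A1, COL7A1 and COL23A1 are called in Carbo+COM33 against control, and no gene in the other panels.

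The second comparison set Carbo+COM33 against Carbo, to ask what COM33 added to carboplatin. No collagen passed the test in the fit of all 9 libraries, where 4.96% of all genes did. At an unadjusted p under 0.05 there were 7 collagens (30.4%) beside 22.4% of all genes, and DESeq2 called 2, COL12A1 lower and COL6A2 higher, where it called 8.15% of all genes. The signs were mixed, with 10 positive and 13 negative log2 fold changes and a median of -0.0749 beside -0.00641 over all genes. COL23A1 and COL1A2, which passed the count filter through Carbo and control libraries, add little to these counts. In COL6A2 and COL17A1 every Carbo+COM33 value lay above every Carbo value, where 11.7% of all genes did so, and in COL4A3 every one lay below, where 11.9% did.

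COL1A1, the main chain of type I collagen, had 5.6, 12.0 and 9.97 CPM in Carbo+COM33, 9.76, 37.7 and 35.6 CPM in Carbo, and 9.57, 37.6 and 34.3 CPM in control libraries. Carbo replicate 1 and control replicate 1 lay at the level of the Carbo+COM33 libraries, and replicates 2 and 3 of both groups stood far above. The log2 fold change of Carbo+COM33 against Carbo was -1.59 ± 0.52 (SE; adjusted p = 0.0956, edgeR), and without Carbo replicate 1 it was -1.99 (adjusted p = 0.00349). COL1A2, its partner chain, had 0.295, 0 and 0.208 CPM in Carbo+COM33, 0.0673, 0.7 and 0.628 CPM in Carbo, and 0.0693, 0.866 and 0.958 CPM in control libraries. It too was lower in Carbo replicate 1 and control replicate 1 than in their companions, but at 1 count in each.

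COL8A1, a network-forming collagen of vessel wall and cornea that is described because of its spread, had 3.53, 3.07 and 3.88 CPM in Carbo+COM33, 3.43, 11.6 and 16.2 CPM in Carbo, and 3.47, 9.39 and 11.4 CPM in control libraries. The 2 replicate 1 libraries again sat with the Carbo+COM33 group. Its log2 fold change of Carbo+COM33 against Carbo was -1.57 ± 0.49 (SE; adjusted p = 0.0846, edgeR), and -1.98 without Carbo replicate 1 (adjusted p = 0.00137). COL8A2, the other type VIII chain, did not share the pattern: it had 3.68, 4.54 and 6.3 CPM in Carbo+COM33, 5.05, 2.86 and 2.86 CPM in Carbo, and 4.92, 5.2 and 5.68 CPM in control libraries. The FPKM ratio of COL8A1 to COL8A2 was 0.477, 0.336 and 0.305 in Carbo+COM33, 0.338, 2.01 and 2.81 in Carbo, and 0.35, 0.897 and 0.999 in control libraries.

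COL5A2, the minor type V chain, had 6.11, 6.57 and 7.69 CPM in Carbo+COM33, 7.13, 12.2 and 11.7 CPM in Carbo, and 8.25, 10.3 and 11.2 CPM in control libraries. COL12A1, a fibril-associated collagen that links fibrils to their surroundings, had 388, 450 and 406 CPM in Carbo+COM33, 446, 632 and 622 CPM in Carbo, and 420, 590 and 605 CPM in control libraries. In both genes replicate 1 was the lowest library of the Carbo and of the control group. Their log2 fold changes of Carbo+COM33 against Carbo were -0.605 for COL5A2 and -0.45 for COL12A1 (adjusted p = 0.11 and 0.101, edgeR), and -0.81 and -0.60 without Carbo replicate 1 (adjusted p = 0.00528 and 0.0056).

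COL6A2 went the other way. This type VI chain had 146, 159 and 165 CPM in Carbo+COM33, 140, 119 and 106 CPM in Carbo, and 154, 148 and 134 CPM in control libraries. Its log2 fold change of Carbo+COM33 against Carbo was 0.37 ± 0.10 (SE; adjusted p = 0.0602, edgeR), 0.48 without Carbo replicate 1 (adjusted p = 0.00359) and 0.35 with GC and length trends removed (adjusted p = 0.0245, with 7.76% of all genes called). COL6A1, its partner, had 9.43, 15.2 and 14.3 CPM in Carbo+COM33, 10.1, 13.4 and 13.2 CPM in Carbo, and 11.7, 17.5 and 12.1 CPM in control libraries, with all groups overlapping. COL4A3 had 85.5, 90 and 81.5 CPM in Carbo+COM33, 90.6, 107 and 112 CPM in Carbo, and 86.8, 99.4 and 98.3 CPM in control libraries, and its log2 fold change against Carbo was -0.27 (adjusted p = 0.117, edgeR). COL4A4 was not called, at -0.19 ± 0.13 (SE; adjusted p = 0.428).

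Without Carbo replicate 1 the test called 6 collagens between Carbo+COM33 and Carbo, where 16.5% of all genes were called: COL1A1, COL8A1, COL5A2, COL12A1 and COL4A3 lower, and COL6A2 higher. Without control replicate 1 it called COL1A1, COL8A1 and COL12A1 lower (6.38% of all genes), without Carbo+COM33 replicate 3 COL18A1 lower (2.97%), and without both replicate 1 libraries 8 collagens, where 20.5% of all genes were called. Each of the other 6 omissions of 1 library gave no call, where 1.42% and 1.45% of all genes were called without Carbo+COM33 replicates 1 and 2, 0.729% and 1.59% without Carbo replicates 2 and 3, and 3.09% and 3.78% without control replicates 2 and 3.

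**Figure D3:**
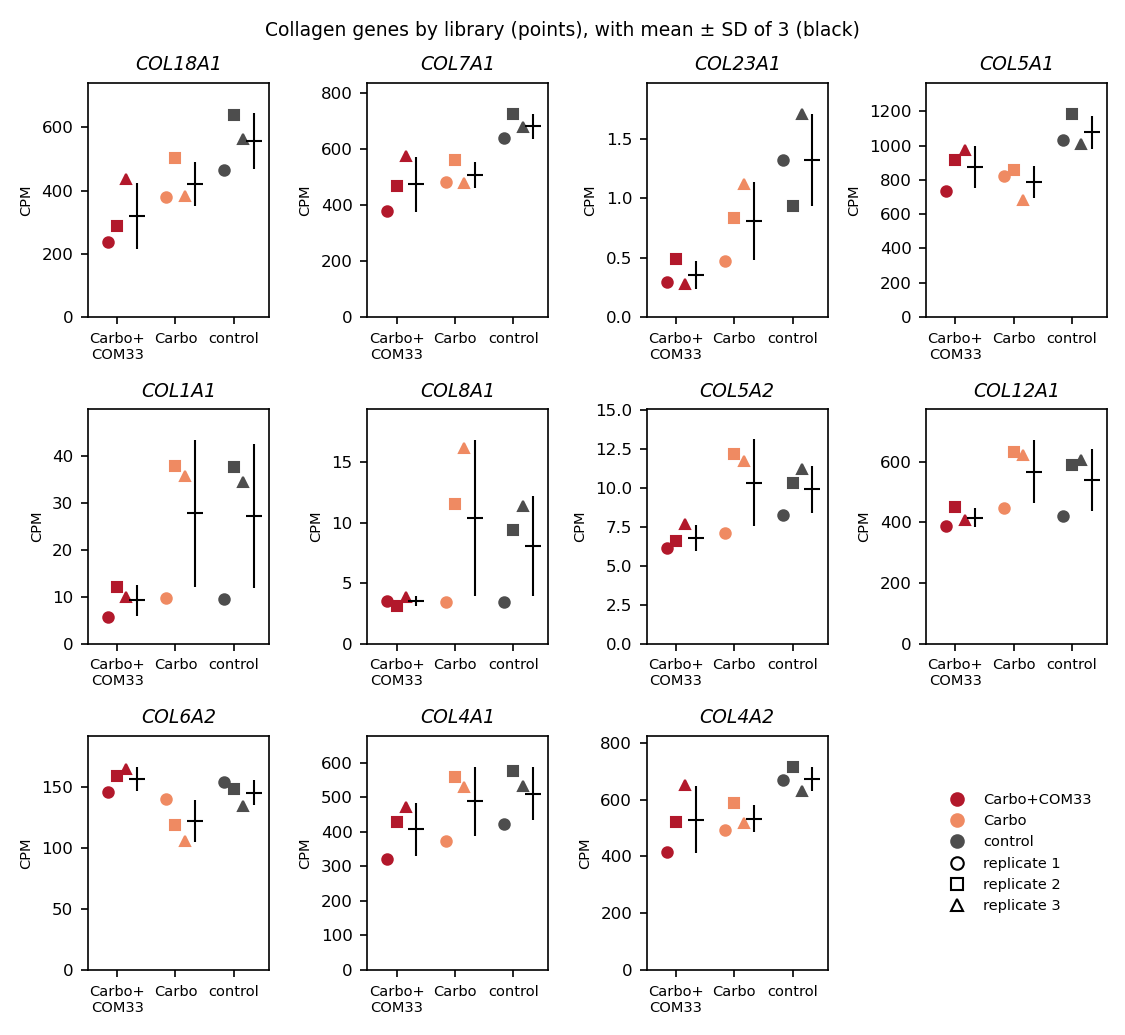
Normalised counts (CPM) of 11 collagen genes in each library (points; marker by replicate number), with the mean and SD of 3 libraries in black; each panel has its own axis from 0. In COL1A1, COL8A1, COL5A2 and COL12A1 the circles of Carbo and control lie near the Carbo+COM33 points, at 9.76 and 9.57 CPM for COL1A1 against 34.3 to 37.7 CPM in the other Carbo and control libraries.

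The third comparison set carboplatin alone against control. The unpaired edgeR fit called no collagen and none of the 16450 genes (0.0%), with 7 collagens (30.4%) and 16.7% of all genes at an unadjusted p under 0.05, and DESeq2 called COL5A1 and 0.809% of all genes. Same-numbered Carbo and control libraries deviated together from their group means, so a paired fit, blocked on the replicate number, was also made. The pairing was inferred from the same counts that were tested, and no label gives it. In that paired fit 8 collagens fell and none rose, 34.8% of the 23 tested, where 11.5% of all genes were called lower and 22.7% in either direction. The 8 were COL5A1, COL18A1, COL7A1, COL4A2, COL6A2, COL16A1, COL11A2 and COL27A1. A block over all 9 libraries, with the Carbo+COM33 libraries that the numbers do not pair, called no collagen and 0.0% of all genes.

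COL5A1, the chain that starts collagen fibrils and the collagen with the highest level here, had 736, 918 and 974 CPM in Carbo+COM33, 822, 857 and 682 CPM in Carbo, and 1035, 1187 and 1012 CPM in control libraries. Every control library was above every treated library. The paired log2 fold change of Carbo against control was -0.46 ± 0.05 (SE), or 0.727 of the control level (adjusted p = 1.15e-05, edgeR). COL7A1 followed with -0.43 ± 0.04 (adjusted p = 8.63e-06), COL18A1 with -0.40 ± 0.05 (adjusted p = 6.99e-05) and COL4A2 with -0.34 ± 0.05 (adjusted p = 7.65e-05). For COL6A2 the paired value was -0.27 ± 0.05 (adjusted p = 0.00188). COL4A1, which shares its promoter region with COL4A2, had a paired value of -0.08 ± 0.05 and was not called (adjusted p = 0.261).

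The other 3 that fell were low or moderate in level. COL16A1, a fibril-associated collagen, had 30.0, 37.1 and 50.4 CPM in Carbo+COM33, 34.7, 39.1 and 31.7 CPM in Carbo, and 43.5, 57.1 and 45.4 CPM in control libraries (paired log2 fold change -0.47, adjusted p = 0.000248, edgeR). COL11A2, a fibrillar chain known from cartilage, had 15.2, 12.6 and 20.3 CPM in Carbo+COM33, 16.5, 17.8 and 12.6 CPM in Carbo, and 22.1, 20.2 and 18.8 CPM in control libraries (-0.39, adjusted p = 0.011). COL27A1, another cartilage-associated fibrillar chain, had 5.52, 8.31 and 7.55 CPM in Carbo+COM33, 5.79, 6.56 and 6.28 CPM in Carbo, and 8.6, 8.79 and 8.48 CPM in control libraries (-0.48, adjusted p = 0.0245). In all 3 the Carbo values lay wholly below the control values.

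Over the 23 tested genes 17 unpaired log2 fold changes of Carbo against control were negative, with a median of -0.336 beside 0.000944 over all genes. With GC and length trends removed 14 were negative, with a median of -0.157 beside 0.00748 over all genes. In 7 collagens (30.4%) every Carbo value lay below every control value, beside 11.7% of all genes, and COL9A2, a cartilage fibril-associated chain, was 1 of them with 1.41, 2.29 and 2.16 CPM in Carbo against 2.84, 3.26 and 2.81 CPM in control libraries. COL1A1 and COL12A1 were not called in the paired fit, with values of 0.03 ± 0.08 and 0.07 ± 0.04 (SE; adjusted p = 0.865 and 0.25, edgeR), although both differed widely between replicate numbers. COL17A1, a hemidesmosome component of epithelial cells, had 22.1, 20.4 and 25.9 CPM in Carbo+COM33, 16.9, 20.1 and 19.7 CPM in Carbo, and 19.8, 20.6 and 16.8 CPM in control libraries, and was called in none of the 3 comparisons.

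The fall in Carbo went with the base composition of the transcripts. Across the 23 tested collagens the rank correlation of GC content with the unpaired log2 fold change of Carbo against control was -0.625, and across all 16450 tested genes it was -0.542; these are descriptions across genes, which are not independent replicates. Among genes above 60% GC the median log2 fold change was -0.41 for 10 collagens and -0.24 for all 2345 genes. In the paired fit 5 of those 10 collagens and 36.4% of all such genes were called lower, against 3 of 13 collagens and 7.37% at or below 60%. Of these 3, COL5A1 at 59.9% GC and COL27A1 at 59.5% lie just under the cut, and COL4A2 is at 54.5%. When trends with GC content and length were removed as well, COL5A1 at -0.28, COL7A1 at -0.17, COL4A2 at -0.24 and COL16A1 at -0.245 were still called lower (adjusted p = 7.1e-05, 0.0109, 0.000453 and 0.0245, edgeR), where 4.7% of all genes were called lower. COL18A1 was then at -0.09 and COL6A2 at 0.01, and neither was called (adjusted p = 0.219 and 0.925). Whether the composition trend arose in the cells or in the libraries was not tested.

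**Figure D4:**
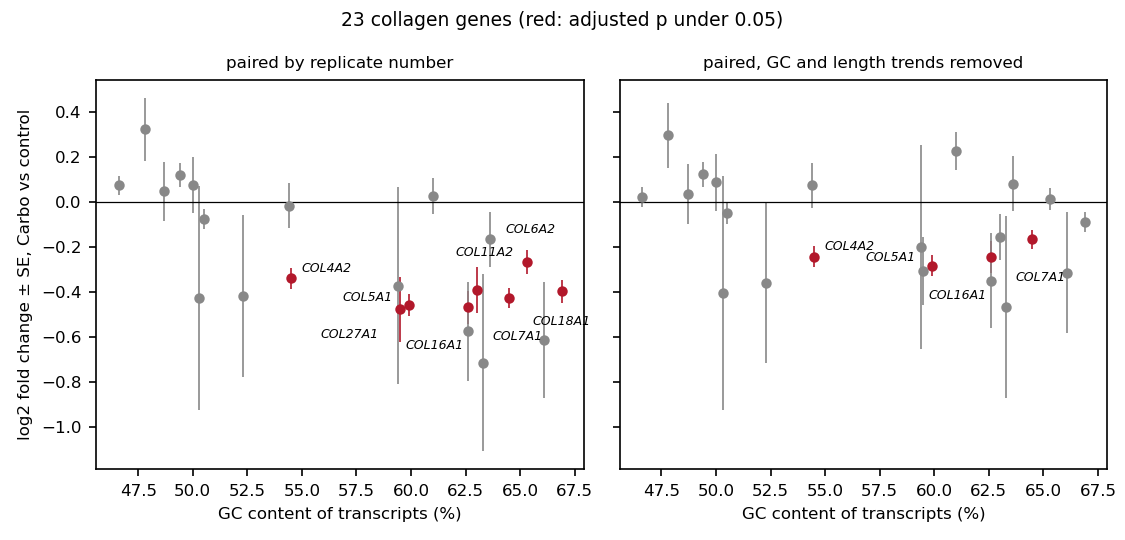
Log2 fold change ± SE of Carbo against control for 23 collagen genes against the GC content of their transcripts (%), in the paired edgeR fit (left) and with GC and length trends also removed (right); red marks an adjusted p under 0.05. On the left 8 genes are called, 5 of them above 60% GC, and on the right COL5A1, COL7A1, COL4A2 and COL16A1.

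By structural class, the unpaired median log2 fold changes of Carbo+COM33 against control were -0.445 for 6 tested fibrillar collagens, -0.24 for 6 network-forming collagens, -0.084 for 3 beaded filament collagens, -0.38 for 3 fibril-associated collagens and 0.26 for 3 transmembrane collagens. COL23A1 and COL17A1, both transmembrane, had values of opposite sign, -1.87 and 0.26, and COL13A1, the third, had 0.52 ± 0.46 (SE; adjusted p = 0.522, edgeR). Those of Carbo+COM33 against Carbo were -0.284, -0.225, 0.0858, -0.0749 and 0.271 in the same order of classes. Of the low genes, COL6A3 was called in none of the 3 comparisons, with 1.25, 1.33 and 1.32 CPM in Carbo+COM33, 1.61, 1.34 and 0.767 CPM in Carbo, and 1.18, 2.0 and 1.78 CPM in control libraries.

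Collagen chains are hydroxylated, folded, exported, trimmed and crosslinked by a set of proteins, not all of them particular to collagen. Of 68 such genes, with receptors, cleaving enzymes and fibril-regulating proteins included, 54 were tested. Between Carbo+COM33 and Carbo 3 were higher and 4 lower (13.0%, beside 4.96% of all genes). Between Carbo+COM33 and control 2 were higher and 5 lower (13.0%, beside 6.29%), and between Carbo and control the unpaired fit called none. The paired fit of Carbo against control called 1 gene higher and 4 lower among the 18 tested for folding and modification, 1 and 2 among 7 for export, 0 and 1 among 6 for trimming, 1 and 1 among 4 for crosslinking, 1 and 2 among 8 receptors, and none of the cleavage or fibril-regulating genes. That makes 4 higher and 10 lower of 54 (25.9%), beside 11.2% higher, 11.5% lower and 22.7% in either direction of all genes in the same fit. Of the 7 genes called between Carbo+COM33 and Carbo, 5 belong to the folding and modification list. Among the genes called lower, TLL1 against Carbo and FKBP10 against control passed the count filter through groups where they were higher. Their direction therefore carries little weight in these counts.

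PLOD1, a lysyl hydroxylase that prepares chains for glycosylation and crosslinking, had 150, 170 and 177 CPM in Carbo+COM33, 191, 261 and 285 CPM in Carbo, and 213, 263 and 248 CPM in control libraries. All Carbo+COM33 values were the lowest, and the log2 fold changes were -0.57 ± 0.13 against Carbo and -0.54 ± 0.13 against control (SE; adjusted p = 0.0313 and 0.0333, edgeR). PLOD2, the lysyl hydroxylase of the chain ends, had 75.0, 90.4 and 76.4 CPM in Carbo+COM33, 107, 117 and 114 CPM in Carbo, and 96.4, 109 and 106 CPM in control libraries, with -0.48 and -0.365 (adjusted p = 0.0112 and 0.0349).

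P4HA1 and P4HA2 are alternative catalytic subunits of prolyl 4-hydroxylase, the enzyme that stabilises the triple helix. P4HA1 had 55.8, 58.7 and 55.8 CPM in Carbo+COM33, 90.2, 66.6 and 70.8 CPM in Carbo, and 86.4, 80.7 and 74.6 CPM in control libraries, and fell in both comparisons (-0.42 against Carbo and -0.51 against control, adjusted p = 0.048 and 0.0214, edgeR). P4HA2 had 96.9, 103 and 105 CPM in Carbo+COM33, 85.4, 75.0 and 71.3 CPM in Carbo, and 93.5, 81.0 and 80.6 CPM in control libraries. It rose against Carbo (0.40, adjusted p = 0.03), and against control it was 0.26 with an adjusted p of 0.11. Of the 9 fits that left out 1 library, the P4HA1 call against Carbo held in 1 and the P4HA2 call in 3. With GC and length trends removed the P4HA1 value against Carbo was not called (adjusted p = 0.109), and without control replicate 1 and Carbo replicate 1 it was -0.267 (adjusted p = 0.0414).

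TMEM38B, an ion channel of the endoplasmic reticulum needed for collagen modification in bone, had 52.9, 45.5 and 48.8 CPM in Carbo+COM33, 33.4, 29.5 and 30.6 CPM in Carbo, and 31.8, 26.0 and 27.3 CPM in control libraries. Its Carbo+COM33 values stood clear of all the others, with log2 fold changes of 0.65 ± 0.10 against Carbo and 0.79 ± 0.10 against control (SE; adjusted p = 0.00528 and 0.0022, edgeR). ADAMTS14, a protease that removes the amino-terminal propeptide of fibrillar procollagen, had 6.33, 6.22 and 8.1 CPM in Carbo+COM33, 2.35, 1.78 and 2.23 CPM in Carbo, and 3.33, 2.8 and 2.39 CPM in control libraries. It rose by 1.70 ± 0.21 against Carbo and 1.28 ± 0.20 against control on the log2 scale (adjusted p = 0.00194 and 0.00542). TMEM38B and ADAMTS14 kept their calls in both comparisons whichever single library was left out, the highest adjusted p being 0.0495 and 0.0408.

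FKBP10, a collagen chaperone, was low, with 0.442, 0.559 and 0.693 CPM in Carbo+COM33, 0.605, 0.573 and 0.558 CPM in Carbo, and 1.46, 1.2 and 1.78 CPM in control libraries. FKBP10 had 6, 8 and 10 counts in Carbo+COM33 and 21, 18 and 26 in control libraries. It passed the count filter through the control libraries, where it was highest, so the direction of its calls carries little weight. Its log2 fold change against control was -1.37 ± 0.34 (SE; adjusted p = 0.0347, edgeR), and Carbo against control was -1.34 unpaired (adjusted p = 0.22) and -1.33 paired (adjusted p = 0.0212), which was -1.15 with GC and length trends also removed (adjusted p = 0.0693). MRC2, an uptake receptor for collagen fragments, had 121, 153 and 176 CPM in Carbo+COM33, 176, 218 and 191 CPM in Carbo, and 190, 236 and 216 CPM in control libraries, and fell against control (-0.51, adjusted p = 0.0387). PLOD1 kept its call against control in 4 and PLOD2 in 4 of the 9 fits that left out 1 library, P4HA1 in 5, MRC2 in 4 and FKBP10 in 3, and with GC and length trends removed PLOD1 and MRC2 were not called against control (adjusted p = 0.0886 and 0.113). TLL1, a tolloid-like procollagen protease, was called lower against Carbo, but rests on 64 counts in 9 libraries and was at 0 in Carbo+COM33 replicates 2 and 3. It passed the count filter through Carbo and control libraries, where it was higher, so the direction of its call carries little weight.

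The collagen chaperone SERPINH1 did not pass the test between any groups in the unpaired fit, at 214 ± 13.2 CPM in Carbo+COM33, 203 ± 3.13 CPM in Carbo and 223 ± 11.8 CPM in control libraries (SD, n = 3). LOX, a crosslinking enzyme, had 41.7, 49.0 and 52.8 CPM in Carbo+COM33, 32.8, 70.3 and 73.9 CPM in Carbo, and 31.1, 59.1 and 56.4 CPM in control libraries, with the 2 replicate 1 libraries lowest. The receptors ITGA2 and DDR1 had log2 fold changes of 0.43 and -0.26 for Carbo+COM33 against control (adjusted p = 0.0848 and 0.214, edgeR), and the interstitial collagenase MMP1 had 0.37 (adjusted p = 0.197). In the paired fit of Carbo against control SERPINH1 had -0.14, LOX 0.25 and DDR1 -0.25 (adjusted p = 0.0392, 0.0146 and 0.00269), and with GC and length trends also removed the values were 0.0367, 0.124 and -0.0441, none of them called (adjusted p = 0.719, 0.284 and 0.685). None of the 7 export genes was called in the unpaired fits.

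**Figure D5:**
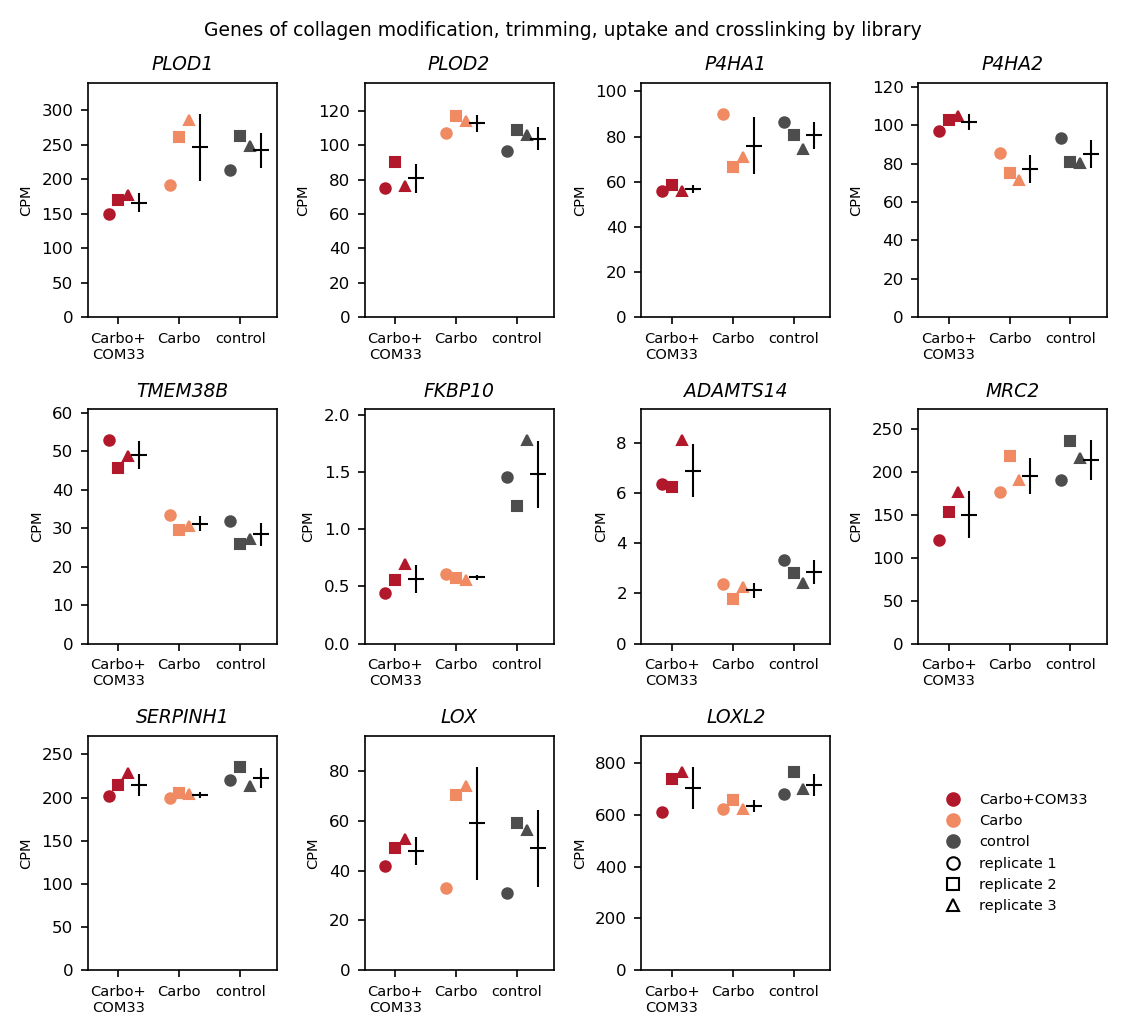
Normalised counts (CPM) of 11 genes that modify, trim, take up or crosslink collagen in each library (points; marker by replicate number), with the mean and SD of 3 libraries in black and each axis from 0. TMEM38B and ADAMTS14 are higher and PLOD1, PLOD2 and P4HA1 lower in all 3 Carbo+COM33 libraries than in any other library, at 6.22 to 8.1 CPM for ADAMTS14 against 1.78 to 3.33 CPM.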

How the data were processed

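Poly(A) RNA libraries (150 bp paired-end reads) were analysed from the deposited table of counts per gene and FPKM. The authors' counts were made with HISAT2 and HTSeq 0.11.2 on GRCh38, per the submitters' processing notes, which also name DESeq2 1.26.0; annotation and strand setting are not given in the sources used here. The deposited FPKM of the 42 collagen genes equals the count over union exon length and library total. Gene coordinates, exon lengths and GC content are from GENCODE 29, and promoters from RefSeq (GRCh38.p14).

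Counts were tested with edgeR 4.0.16 in R 4.3.3 (filterByExpr, TMM, quasi-likelihood test, 1 coefficient per group, all 9 libraries, Benjamini-Hochberg over 16450 of 32378 genes), and called at an adjusted p under 0.05. The SE is the log2 fold change divided by the root of F. CPM values are TMM-normalised (counts in CPM were computed from the deposited counts), and log2 fold changes are fitted to counts. The 19 collagen genes under the filter were counted but not tested. Depth was 13851760 to 15533668 counts per library, with a common dispersion of 0.0133. The test was also run on counts simulated with this common dispersion and no outlying library, which does not check calls that hinge on single libraries. DESeq2 1.42.0, other scalings and filters, a correction for GC content and length (spline offsets with 5 degrees of freedom), single omitted libraries and the replicate number as a block were alternatives.

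Same-numbered Carbo and control libraries had correlations of 0.824, 0.565 and 0.748 between their deviations from the group means over 6607 genes, so these numbers were taken to pair the libraries, and paired values stand beside the unpaired ones. No label says what the number marks.

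The members, the lists and the alternatives were chosen with earlier results of these data known. Described by library were collagens called in any comparison or in the paired fit, the 10 highest by FPKM, partner chains of those, and COL1A1, COL1A2 and COL3A1, and of the other lists called genes and P4HA1, PLOD2, SERPINH1, LOX, ITGA2, DDR1 and MMP1. COL8A1, COL8A2, COL9A2, COL13A1, COL6A3, COL25A1, TGFBI, FN1, P3H2 and the genes given as examples of low counts were added after their values were seen.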

Additional observations from a re-analysis of the deposited data

How the results depend on the processing

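With 3 libraries in each group and 1 of them apart from its companions, calls depended on the fit; where one changed, the cause was not tested unless named. The 19 collagens with at most 48 counts over the 9 libraries were not tested, and COL23A1 had no adjusted p in DESeq2.

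For Carbo against control, 0 collagens were called in the 9-library fit, and 0 with the 2 groups alone, RLE scaling, the GC and length correction, a mean count of at least 10, or the block over 9 libraries. DESeq2 called 1, the replicate block over the 2 groups 8, and that block with the GC and length correction 4. The fit with no filter called 5 of 42, where 2.87% of 32378 genes were called. The paired fit called 10, 6 and 6 without replicate 1, 2 and 3, and unpaired omissions of 1 library gave 0 to 2. Of the 10, 8 were lower and 2 higher, COL4A3 and COL8A1, where 13.2% of all genes were called in each direction. The other calls of this comparison were lower. Over all genes the unpaired count was 0, against 133 with DESeq2, 928 with no filter, 1034 without Carbo replicate 1, 3739 paired, 1699 paired with the correction, and 4338, 1623 and 2842 paired without replicate 1, 2 and 3.

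For Carbo+COM33 against Carbo, 0 collagens were called, against 2 with DESeq2 and 1 with the GC and length correction. With no filter 6 of 42 were called, where 5.79% of 32378 genes were. Unblocked fits with libraries left out called 0 to 8. The 8 were without control replicate 1 and Carbo replicate 1 together, a setting chosen after seeing the data. In all fits of this comparison COL6A2 and COL8A2 were higher wherever called, and the other called collagens were lower. Replicate numbers did not pair these libraries (correlations -0.015, 0.138 and -0.388); the replicate block gave 5 over 9 libraries, 1 over 2 groups, 4 with the correction, and 6, 1 and 6 without replicate 1, 2 and 3. Over all genes 816 were called, against 1340 with DESeq2, 1277 with the correction, 1876 with no filter, 1554 and 502 with the block over 9 libraries and 2 groups, 1116 with block and correction, 1879, 280 and 1336 with the block without replicate 1, 2 and 3, and 120 to 3368 in unblocked fits with libraries left out.

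For Carbo+COM33 against control, 3 collagens were called, against 5 with the 2 groups alone and 2 with DESeq2. Unblocked fits with libraries left out called 0 to 9. With no filter 9 of 42 were called, where 5.97% of 32378 genes were. Numbers did not pair here either (0.0851, 0.101 and -0.42), and in neither comparison with Carbo+COM33 did any library correlate best with its own number. The replicate block gave 7 over 9 libraries, 5 over 2 groups, 8 with the correction, and 6, 3 and 13 without replicate 1, 2 and 3. Over all genes 1035 were called, against 1462 (8.89%) with the 2 groups alone, 1563 with DESeq2 and 1934 with no filter. The block called 1625 and 1129 genes over 9 libraries and 2 groups, and 1781 with the correction. It called 943, 310 and 5163 genes without replicate 1, 2 and 3, so the 13 collagens above stand beside 5163 genes. Unblocked fits with libraries left out called 114 to 2348 genes.

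Signs of small log2 fold changes turned round in places. With the GC and length correction, alone and with the replicate block, Carbo against control gave 0.075 and 0.073 for COL17A1, 0.084 and 0.081 for COL6A1, and 0.014 and 0.012 for COL6A2, and Carbo+COM33 against control 0.128 and 0.127 for COL6A1. Carbo+COM33 against Carbo gave 0.0089 for COL4A2 with the correction and 0.0034 with no filter. The replicate block without replicate 1 gave 0.087 for COL17A1 (Carbo against control), 0.090 for COL4A2 and 0.0062 for COL7A1 (Carbo+COM33 against Carbo) and 0.014 for COL6A1 (Carbo+COM33 against control). Without replicate 2 it gave 0.0018 for COL17A1 and -0.057 for COL5A2 (Carbo against control) and 0.048 for COL4A2 (Carbo+COM33 against Carbo), and without replicate 3 -0.304 for COL11A2, -0.138 for COL16A1 and -0.027 for COL5A1 (Carbo+COM33 against Carbo).

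Over unblocked omissions of libraries, Carbo against control ran from -0.075 to 0.22 for COL12A1, -0.097 to 0.078 for COL17A1, -0.374 to 0.432 for COL1A1, -0.952 to 0.068 for COL1A2, -0.181 to 0.094 for COL4A1, -0.074 to 0.268 for COL5A2 and -0.271 to 0.039 for COL6A1. Carbo+COM33 against Carbo ran from -0.17 to 0.188 for COL11A2, -0.068 to 0.319 for COL16A1, -0.184 to 0.143 for COL4A2, -0.039 to 0.274 for COL6A1 and -0.263 to 0.042 for COL7A1, and Carbo+COM33 against control from -0.213 to 0.124 for COL6A1.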

Other observations

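As in COL1A1 and COL8A1, replicate 1 of Carbo and of control was low in some genes of the collagen-related lists, which were picked out after their values were seen. TGFBI, a protein that binds collagen and integrins, had 250, 391 and 329 CPM in Carbo+COM33, 336, 832 and 825 CPM in Carbo, and 313, 787 and 766 CPM in control libraries. P3H2, a prolyl 3-hydroxylase that acts on type IV collagen, had 83.5, 105 and 106 CPM in Carbo+COM33, 106, 219 and 244 CPM in Carbo, and 101, 178 and 193 CPM in control libraries. FN1, which encodes fibronectin, had 563, 737 and 615 CPM in Carbo+COM33, 552, 891 and 880 CPM in Carbo, and 508, 840 and 839 CPM in control libraries. Replicate 1 of Carbo and of control was the low one of its group in all 3 genes. None of the 3 was called in the unpaired edgeR fit of 9 libraries in any comparison, where Carbo+COM33 against Carbo gave adjusted p of 0.106 for TGFBI, 0.0652 for P3H2 and 0.45 for FN1. Without control replicate 1 and Carbo replicate 1, a setting chosen after seeing the data, all 3 were called lower in Carbo+COM33 than in Carbo, with log2 fold changes of -1.35 for TGFBI, -1.23 for P3H2 and -0.465 for FN1 (adjusted p = 2.67e-06, 7.57e-07 and 0.00255, edgeR). The paired fit of Carbo against control called P3H2 higher, at 0.242 (adjusted p = 0.00386). The cause was not tested.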
